A study of Mus musculus with 2 samples.

Results

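Macrophage nuclei that carried at least 2 of the 6 genes St18, Ptpro, Adgre4, Sirpb1a, Sirpb1b and Skint3 numbered 143 of the 6593 quality-filtered nuclei of iWAT, the inguinal subcutaneous fat of the mouse. They were chosen by the measured counts themselves. A nucleus entered the set when it had at least 500 detected genes and at most 5% mitochondrial counts, at least 1 unique molecular identifier (UMI, 1 captured RNA molecule) of at least 2 of the 6 rule genes, at least 1 UMI of Csf1r, Mertk, Adgre1 or Rbpj, and a UMI of at most 1 of the adipocyte genes Plin1, Plin4, Cidec and Lipe. The levels of these 14 genes are therefore a description of the choice and not a finding. The comparison group, called other macrophages, was the nuclei of the same library under the same limits that had a UMI of at least 2 of Csf1r, Mertk and Adgre1 and were not members.

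Single-nucleus RNA sequencing (10x Genomics 3′ v3.1) compared iWAT of male C57BL/6 mice on a Western diet with and without Lexis, a long noncoding RNA, in fat cells. The Lexis-AdWT group was littermate controls, and the Lexis-AdKO group carried floxed Lexis and the Cre recombinase driven by the adiponectin promoter. That promoter acts in adipocytes, so macrophages are not the cells in which the deletion was made. Tissue of 3 mice was pooled for each of the 2 libraries, and the depot was taken without its lymph node according to the labels. There is 1 library per genotype, so no test between genotypes is possible and no p-value is given. All intervals are 95% intervals that cover counting error and leave out the spread between mice.

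File names and sample labels give opposite genotypes for both libraries, with no check by Lexis itself, which was not analysed here. Below they are called WT-labelled and KO-labelled, after the sample labels, and the directions below would turn if the file names were right. The WT-labelled library held 3649 kept nuclei with a median of 1208 UMIs, and 1665 of them were lymphocyte nuclei, with at least 3 lymphocyte genes, at most 1 adipocyte gene and no place in either macrophage set. The KO-labelled library held 2944 kept nuclei with a median of 3973.5 UMIs, of which 59 were lymphocyte nuclei. The libraries shared 12 barcodes, and none of these was a member.

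Adipose tissue macrophages clear dying fat cells, take up released lipid and present antigen. Long-lived resident cells, which carry scavenger receptors such as Cd163 and Mrc1, are distinguished from cells that arrive as blood monocytes through the chemokine receptor Ccr2, and lipid-associated macrophages that gather around fat cells carry Trem2, Gpnmb, Cd9 and Lpl. St18 is a zinc finger transcription factor, Ptpro a receptor-type tyrosine phosphatase and Adgre4 an adhesion receptor related to F4/80, the product of Adgre1. Sirpb1a and Sirpb1b are signal-regulatory proteins of the activating kind, which signal through the adaptor Tyrobp. Skint3 belongs to a family related to the butyrophilins.

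The 6 genes lie on 5 chromosomes of GRCm38, the build named as mm10 in the labels. St18 spans 6487231 to 6860940 of chromosome 1, Ptpro spans 137252299 to 137464634 of chromosome 6, Adgre4 spans 55749984 to 55853662 of chromosome 17 and Skint3 spans 112232245 to 112300468 of chromosome 4. Sirpb1a (15371661 to 15426522) and Sirpb1b (15495754 to 15575067) lie side by side on chromosome 3, with their paralogue Sirpb1c at 15795147 to 15848530. Of windows of 90 bases, the length of the sequenced read, Sirpb1a shared 28.5% with the other 2 paralogues, Sirpb1b 53.3% and Sirpb1c 23.6%. How reads were split among these 3 genes is therefore uncertain, and they are best read as 1 group.

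The promoters of Adgre4 and of the 3 Sirpb1 genes are shown because each window holds the same 7 bases and the 3 Sirpb1 windows show how alike these paralogues are. The sequences are from RefSeq on GRCm38.p6, from 250 bases before to 50 after a transcript start, and were matched by symbol for 5 of the 6 rule genes and for Sirpb1c. The capitals mark AGGAAGT on either strand, printed here as its reverse complement ACTTCCT. It is a sequence with the GGAA core that ETS factors such as PU.1, encoded by Spi1, bind.
Adgre4 (chr17:55749734-55750033, plus strand): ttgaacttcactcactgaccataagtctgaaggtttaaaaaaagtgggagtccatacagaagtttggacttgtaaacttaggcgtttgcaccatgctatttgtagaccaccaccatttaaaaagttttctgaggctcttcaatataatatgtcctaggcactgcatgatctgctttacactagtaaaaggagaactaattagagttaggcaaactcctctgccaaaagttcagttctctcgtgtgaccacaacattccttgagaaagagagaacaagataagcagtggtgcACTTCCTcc
Sirpb1a (chr3:15426378-15426677, minus strand): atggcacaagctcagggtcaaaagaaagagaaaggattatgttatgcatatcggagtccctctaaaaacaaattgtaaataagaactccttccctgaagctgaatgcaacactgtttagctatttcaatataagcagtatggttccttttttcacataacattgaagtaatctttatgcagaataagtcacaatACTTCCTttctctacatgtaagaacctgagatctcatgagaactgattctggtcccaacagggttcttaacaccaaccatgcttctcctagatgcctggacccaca
Sirpb1b (chr3:15575016-15575315, minus strand): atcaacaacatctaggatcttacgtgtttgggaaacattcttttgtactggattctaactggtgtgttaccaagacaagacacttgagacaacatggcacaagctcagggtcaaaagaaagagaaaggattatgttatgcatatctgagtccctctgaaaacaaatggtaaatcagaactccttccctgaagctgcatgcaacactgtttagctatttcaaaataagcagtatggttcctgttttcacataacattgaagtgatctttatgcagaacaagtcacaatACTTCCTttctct
Sirpb1c (chr3:15848438-15848737, minus strand): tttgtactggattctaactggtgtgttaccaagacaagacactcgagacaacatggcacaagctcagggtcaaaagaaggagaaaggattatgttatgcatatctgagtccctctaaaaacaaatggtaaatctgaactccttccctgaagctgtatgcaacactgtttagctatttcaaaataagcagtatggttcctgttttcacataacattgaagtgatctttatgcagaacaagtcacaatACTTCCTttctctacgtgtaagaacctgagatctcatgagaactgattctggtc
The motif was chosen after these sequences had been seen. It was in 3072 of all 32851 promoters in the table (9.35%), so a match is common, and the 3 Sirpb1 windows are copies of one another around it. The windows of Ptpro and Skint3 did not hold these letters.

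Members were 4 of 3649 kept nuclei (0.110%, exact Clopper-Pearson interval 0.0299 to 0.280) in the WT-labelled library and 139 of 2944 (4.72%, 3.98 to 5.55) in the KO-labelled library. As a share of macrophages, members plus other macrophages, they made up 3.54% (4 of 113, 0.973 to 8.82) and 31.7% (139 of 438, 27.4 to 36.3). Depth enters the rule, since a deeper nucleus has more chances to show 2 of 6 genes. The median was 2898.5 UMIs in members against 1919 in other macrophages of the WT-labelled library, and 3952 against 3025 in the KO-labelled library. Each nucleus with at least 1000 UMIs was then thinned to 1000 and the rule applied anew. This left out 1238 kept nuclei of the WT-labelled library and 117 of the KO-labelled library. Members were 0 of 55 macrophages in the WT-labelled library, which allows a share of up to 5.45% by a limit of 3 counts and 6.49% by the exact interval. They were 48 of 275 (17.5%, 13.2 to 22.5) in the KO-labelled library. Of those 48 nuclei, 33 were members at full depth. The rest had missed only the adipocyte limit at full depth and passed it once UMIs of adipocyte genes were lost to thinning.

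**Figure D1:**
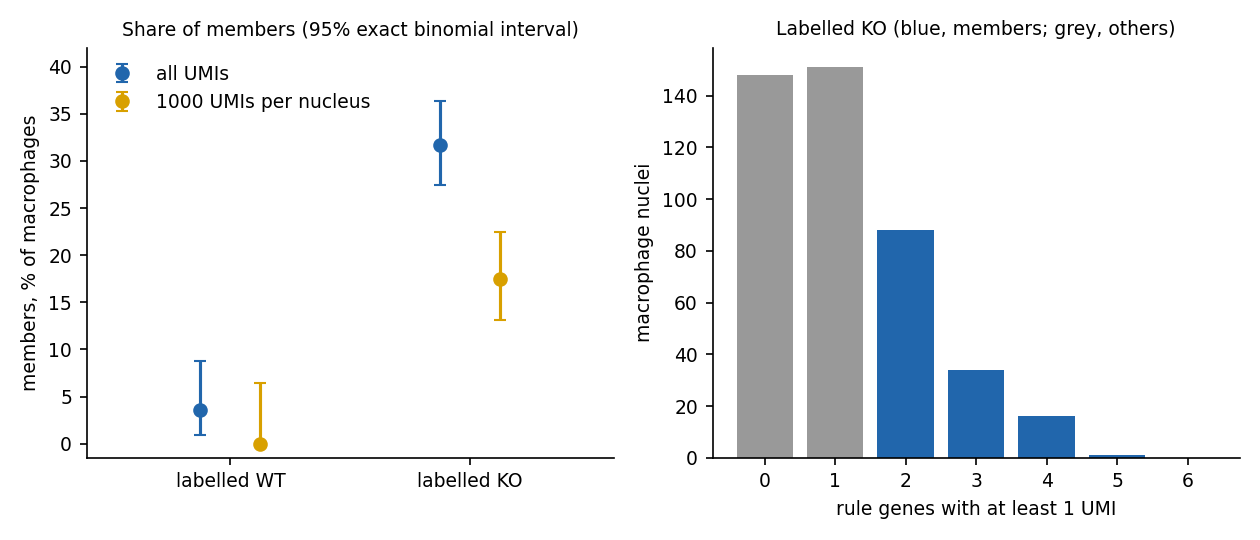
Left, members as a percentage of macrophages in each library with exact binomial 95% intervals, at full depth (blue) and after thinning to 1000 UMIs per nucleus (yellow). Right, macrophage nuclei of the KO-labelled library by the number of rule genes with a UMI: 148 had none and 151 had 1 (grey, other macrophages), and members (blue) had 2 to 5, with 88 at exactly 2.

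The 4 members of the WT-labelled library can be listed singly. The first carried Sirpb1b and Skint3 with 2234 UMIs. The second carried Ptpro and Skint3 with 2744 UMIs, but also 7 lymphocyte genes, and was marked as a doublet. The third carried Ptpro and Adgre4 with 4436 UMIs and 3 lymphocyte genes, and passed the macrophage gate through Rbpj alone. The fourth carried Ptpro and Adgre4 with 3053 UMIs, and Csf1r, Adgre1 and Rbpj. None of the 4 had a UMI of St18 or Sirpb1a, and in this library no other macrophage had one either (0 of 109, which allows up to 2.75% of nuclei).

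In the KO-labelled library, 88 members had exactly 2 rule genes, 34 had 3, 16 had 4 and 1 had 5. Ptpro was the most frequent, with a UMI in 114 of 139 members (82.0%), followed by Adgre4 in 77 (55.4%), Sirpb1b in 49 (35.3%), Skint3 in 41 (29.5%), and St18 and Sirpb1a in 33 each (23.7%). More members thus carried Ptpro or Adgre4 than St18. These genes chose the members, so the shares describe the choice and do not show what the nuclei have in common.

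Summed over nuclei and scaled to the summed UMIs of the set as CPM, St18 stood at 168 CPM (137 to 203) in members and 50.4 (37.5 to 66.2) in other macrophages of the KO-labelled library. Ptpro stood at 434 against 178 CPM, and Adgre4 at 376 against 51.4 CPM. Ptpro was therefore also frequent outside the set, with a UMI in 96 of 299 other macrophages (32.1%). Sirpb1a (92.0 against 0.988 CPM), Sirpb1b (149 against 3.95) and Skint3 (111 against 4.94) were nearly limited to members, with 57, 92 and 69 UMIs against 1, 4 and 5.

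RNA free in the droplets gives UMIs in nuclei that do not express a gene. Adipocyte nuclei of the KO-labelled library, those with at least 3 of the 4 adipocyte genes, served as the background at a median of 7669 UMIs. Of these 1045 nuclei, 1.82% had a UMI of St18, 4.50% of Ptpro, 2.20% of Adgre4, 0.670% of Sirpb1a, 0.670% of Sirpb1b and 1.15% of Skint3. The share of other macrophages with Sirpb1a (0.334%) or Skint3 (1.00%) was no higher than this background, which was taken at a greater depth. That with Sirpb1b (1.34%, 4 of 299) was above it by few nuclei. The share with Ptpro, Adgre4 or St18 (4.68%) was higher at a lower depth. Other macrophages hold by rule at most 1 rule gene, which lowers their shares in advance. The comparison therefore cannot show whether Sirpb1a, Sirpb1b or Skint3 are at background in macrophages. In this library, 393 nuclei had at least 2 of Csf1r, Mertk and Adgre1, members or not. Of these, 13 had a UMI of Sirpb1a, 31 of Sirpb1b and 21 of Skint3.

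**Figure D2:**
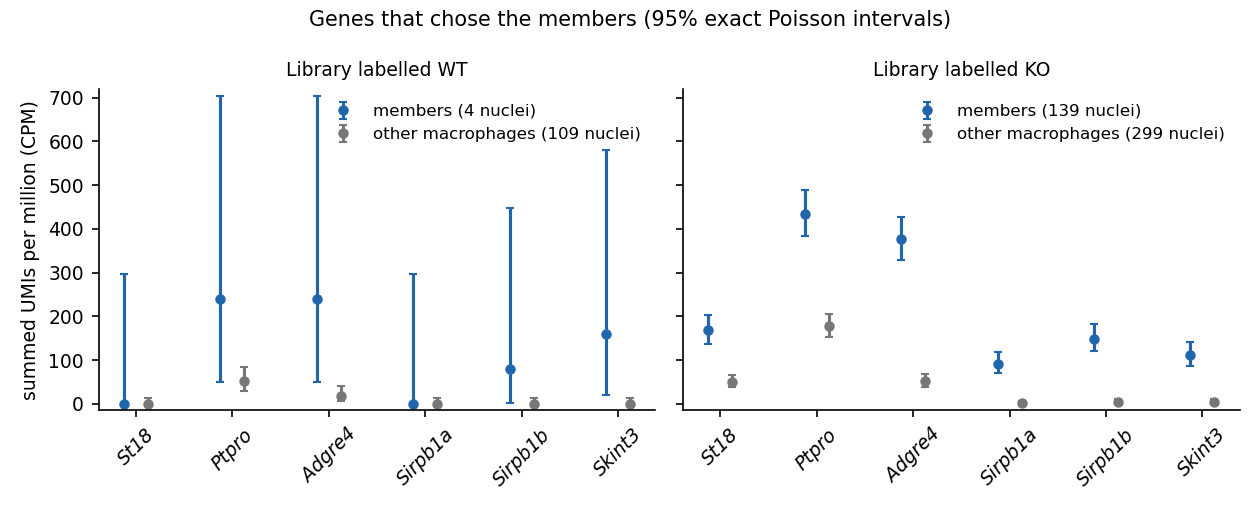
Level of each rule gene in CPM with exact Poisson 95% intervals in members (blue) and other macrophages (grey), left for the WT-labelled library and right for the KO-labelled library. In the KO-labelled library the 2 intervals are apart for all 6 genes because these genes chose the members, and in the WT-labelled library the 4 members leave intervals that reach up to 703 CPM.

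The gate was met with unequal strength. Of the 139 members in the KO-labelled library, 94 had at least 2 of Csf1r, Mertk and Adgre1, 32 had 1 and 13 had none and entered through Rbpj alone. Csf1r (404 against 563 CPM) and Mertk (407 against 705) were lower in members than in other macrophages without reaching the call rule, and Adgre1 was level (647 against 675, ratio 0.960, 0.846 to 1.09). Other macrophages had to carry 2 of these 3 genes and members did not. Rbpj, the transcription factor of Notch signalling, stood at 4276 CPM in members and 9110 in other macrophages of this library, but at 321 and 157 CPM in the WT-labelled library. It also differed between the libraries in adipocyte nuclei (276 CPM labelled KO, 49.6 labelled WT), so that this gate gene was met more easily in the KO-labelled library. With a stricter gate, 2 of Csf1r, Mertk and Adgre1, members were 0.909% of macrophages in the WT-labelled library and 23.9% in the KO-labelled library. The stricter gate was not free of such a difference. In adipocyte nuclei Mertk stood at 185 CPM (53.0% of nuclei) labelled KO and 23.9 CPM (8.69%) labelled WT. Adgre1 stood there at 23.6 and 15.1 CPM, and Csf1r went the other way at 19.8 and 31.0 CPM.

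The label macrophage held against markers outside the rule. Of 15 pan-macrophage genes, 15 had enough counts in the KO-labelled library, and the list summed to 8592 CPM in members and 6714 in other macrophages. Lyz2, the lysozyme of myeloid cells, had a UMI in 121 of 139 members, and Ptprc, the leukocyte antigen CD45, in 130. The B lymphocyte list summed to 313 CPM against 425 in other macrophages, of which Bank1 gave 184 of 194 counts, while Cd79a had 2 counts and Ms4a1 had 1. The T and NK list was higher in members, with 39 counts against 14 (63.0 against 13.8 CPM, ratio 4.55, 2.42 to 9.08). None of its genes had enough counts to be compared. Skap1 gave 20 of the 39 counts, all but 1 of these 20 in a single nucleus. The dendritic cell list summed to 663 CPM against 817, but unevenly: Flt3 was higher (34 UMIs against 1), Cd209a (55 against 45) and Batf3 (95 against 88) had ratios of 2.00 and 1.76 without a call, Clec10a (187 against 609) had a ratio of 0.502, and Xcr1 had no count in either set. The median log2 ratio of the dendritic cell genes with enough counts was 0.82, and −0.90 under the stricter gate. The adipocyte list stood at 559 CPM against 611 in other macrophages.

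Members differed from other macrophages by fewer resident genes and more monocyte genes. A gene is called higher or lower here when its CPM ratio was at least 2 or at most 0.5 and the interval of the ratio left out 1. In the KO-labelled library, 7700 genes had at least 30 counts, of which 341 (4.43%) were called higher in members and 336 (4.36%) lower, with a median log2 ratio of 0.00. In the WT-labelled library, 2111 genes were compared, 90 (4.26%) called higher and 41 (1.94%) lower. These last counts rest on 4 nuclei and on the scaling: scaled by TMM, which sets the totals so that most genes are level, they became 7 higher and 268 lower. Since the members were chosen on these counts, the numbers describe the set and do not test it.

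Of 2065 genes compared in both libraries, 5 were called higher in members of both, 13 lower in both and none in opposite directions. On their own, the WT-labelled and KO-labelled libraries had 4.26% and 4.43% of genes called higher, and 1.94% and 4.36% lower. Whether the shared calls exceed what separate calls at these shares would give was not tested. The 5 were Ccr2, the receptor that draws monocytes into tissue, Fgr, a Src-family kinase of myeloid cells, Bcl2, which blocks apoptosis, Traf1, a signalling adaptor of TNF receptors, and Grk3, a kinase that silences G protein-coupled receptors. Under TMM scaling 1 of the 5, Ccr2, was still called in both libraries, as were all 13 of the lower genes.

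Ccr2 had 300 UMIs in 84 of 139 members and 213 in 71 of 299 other macrophages of the KO-labelled library, 484 against 210 CPM (ratio 2.30, 1.93 to 2.76). In the WT-labelled library it had 12 UMIs in members and 41 in other macrophages (963 against 140 CPM, ratio 6.87, 3.29 to 13.3). Thinned to 1000 UMIs, 32.6% of members and 13.2% of other macrophages of the KO-labelled library had a UMI of Ccr2. The gene was thus more frequent in members at equal depth.

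Fgr stood at 313 against 63.2 CPM in the KO-labelled library (ratio 4.96, 3.72 to 6.68) and at 401 against 113 CPM in the WT-labelled library, from 5 and 33 UMIs. Grk3 stood at 365 against 110 CPM (ratio 3.33, 2.64 to 4.22) and at 963 against 451 CPM. Bcl2 (110 UMIs against 80) and Traf1 (26 against 11) had fewer counts. Bcl2 missed the rule in 4 alternatives, with log2 ratios of 0.60 without the adipocyte limit, 0.90 with the stricter gate, 0.97 without nuclei that held 2 lymphocyte genes and 0.98 with at least 1000 genes.

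The 13 lower genes were the resident markers Cd163 and F13a1, the Timd4-type markers Timd4 and Cd209b, the lipid carrier Apoe, the complement gene C1qa, the chemokine Ccl8, and Vcam1, Selenop, Gsn, Adam33, Col1a1 and Col3a1. In the KO-labelled library, Cd163 had 511 UMIs in 69 members and 1990 in 223 other macrophages (825 against 1965 CPM, ratio 0.420, 0.380 to 0.463). In the WT-labelled library it had 0 UMIs in members and 102 in other macrophages. Apoe stood at 1585 against 3745 CPM (ratio 0.423, 0.394 to 0.454) in the KO-labelled library and at 802 against 4736 CPM in the WT-labelled library. When members had to carry 2 of Csf1r, Mertk and Adgre1, as other macrophages did, the log2 ratios of Cd163, Apoe and F13a1 were −0.96, −0.90 and −0.67, against −1.25, −1.24 and −1.02 above, and missed the call. They also missed it with other macrophages taken by 2 of the 4 gate genes (−0.90, −0.93 and −0.68) and without the adipocyte limit (−0.74, −0.74 and −0.43). F13a1 further missed it without nuclei that held 2 lymphocyte genes (−0.99) and without dividing nuclei (−0.98).

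The collagen genes Col1a1 and Col3a1 are made by fibroblasts, and the list of stromal progenitor and fibroblast genes stood at 673 CPM in members and 1494 in other macrophages of the KO-labelled library, with 5 of 8 genes lower and 1, Dpp4, higher. Collagen UMIs in macrophage nuclei moved together with the resident genes, and their part in these ratios was not tested.

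By list, 11 of 12 resident macrophage genes were lower and none higher in the KO-labelled library, against 4.36% lower among all genes, with a median log2 ratio of −1.31. The list summed to 6251 CPM in members and 13101 in other macrophages (ratio 0.477, 0.460 to 0.495). Mrc1, the mannose receptor, was the gene that missed the call, at 1832 against 2982 CPM. At least 2 of Mrc1, F13a1 and Cd163 were found in 95 of 139 members (68.3%) and in 279 of 299 other macrophages (93.3%), and 17 members had none of the 3. The count depended on the choice of nuclei, with 6 of 12 genes lower under the stricter gate, 7 against other macrophages taken by 2 of the 4 gate genes, 5 without the adipocyte limit and 12 with at least 3 rule genes. The Timd4-type list, markers of embryo-derived tissue macrophages, summed to 144 against 524 CPM, and 4 of 4 genes with enough counts were lower.

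Of the classical monocyte list, 3 of 4 genes with enough counts were higher (Fn1, Ccr2 and Plac8) against 4.43% higher among all genes, and the list summed to 1396 against 512 CPM (ratio 2.73, 2.45 to 3.05). Fn1, the matrix protein fibronectin, stood at 743 against 255 CPM. Of the non-classical monocyte list, 4 of 5 were higher, beside the same 4.43%, and the sums were 454 against 120 CPM. Among them were Itgal, the integrin chain of LFA-1 (105 against 7.90 CPM), and Nr4a1, the nuclear receptor that patrolling monocytes need (46.8 against 1.98 CPM, 29 UMIs against 2). Under the stricter gate, 2 of 2 classical and 2 of 3 non-classical genes were higher, beside 219 of all 7286 genes compared. The median log2 ratios were then 1.07 and 1.05, against 1.37 and 2.43 with all members.

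The MHC class II list summed to 11410 against 7685 CPM (ratio 1.48, 1.44 to 1.53) with none of 7 genes past the call rule. Of the lipid-associated list 3 of 15 genes were higher, against 4.43% of all genes, and none lower: Gpnmb (34 UMIs against 13), Atp6v0d2 (77 against 56) and Itgax (50 against 11). Its sums were close, 4725 against 4350 CPM, and with at least 3 rule genes none of 13 was higher and 3 were lower. The LXR and cholesterol efflux list was lower in sum, 2882 against 5148 CPM, and Apoe made up 1585 and 3745 CPM of it. Abcg1 was higher (ratio 2.20) and Abca1 stood at 349 against 594 CPM without a call.

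Cell division genes were higher in 6 of 6 with enough counts, against 4.43% of all genes. The list stood at 525 against 104 CPM (ratio 5.06, 4.05 to 6.37). Top2a, the topoisomerase of replicating chromosomes, had 80 UMIs in 14 members and 13 in 7 other macrophages, and Mki67 had 47 UMIs in 12 members and 17 in 13. At least 2 division genes were found in 14 of 139 members (10.1%) and 11 of 299 other macrophages (3.68%). Without these nuclei too few division counts were left to compare the list, while 10 of 12 resident genes were lower and 3 of 4 classical monocyte genes higher.

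Of the remaining lists in the KO-labelled library, no gene of the inflammatory response list passed the call rule, and its sums were 723 against 571 CPM. The alternative activation list stood at 4325 against 3899 CPM, with Pparg (205 UMIs in 64 members, 133 in 69 others) and Irf4 higher. Pparg, however, turned to a log2 ratio of −0.65 when the adipocyte limit was dropped. The SIRP and paired receptor list stood at 1684 against 1099 CPM (ratio 1.53, 1.41 to 1.67). Of its genes, Sirpb1c (50 UMIs against 5) and Cd300a (183 against 119) were higher, while Tyrobp, the adaptor of these receptors, stood at 334 against 199 CPM. Sirpb1c shares read windows with the rule genes Sirpb1a and Sirpb1b. Its level, and its part in the list, are therefore not free of the choice of members. The osteoclast and fusion list (1161 against 1096 CPM) had Atp6v0d2 higher, and Dcstamp, with 25 UMIs against 3, had too few counts for the comparison. Of the lists of other cell types not given above, 3 were lower in members. They had 8 counts against 30 for mural cells (ratio 0.436, 0.173 to 0.973), 29 against 85 for endothelial cells (0.558, 0.353 to 0.859) and 41 against 105 for mast cells and granulocytes (0.638, 0.434 to 0.924). None of their genes with enough counts was called.

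The genes with the highest ratios in the KO-labelled library were taken by a rule set after the data were seen, because 4 members in the other library left few genes called in both. Besides Nr4a1, Sirpb1c and Itgal, given above, they were of several kinds. Flt3, the receptor of dendritic cell progenitors, had 34 UMIs in 11 members and 1 UMI in other macrophages (ratio 55.6, 9.32 to 2259). The natural killer type lectin receptors Klra2 (83 UMIs in 26 members against 5) and Klri1 (53 in 21 against 4) and the SLAM receptor Cd244 (69 in 35 against 9) are receptors as well. Gpr141, an orphan G protein-coupled receptor, had 142 UMIs in 37 members and 21 in 5 other macrophages (ratio 11.1, 6.96 to 18.4).

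Bcl11a (43 UMIs in 18 members against 4), a transcription factor of dendritic cell and lymphoid development, Sema4d (51 in 28 against 8), Tnip3 (93 in 35 against 17), Grap2 (41 in 24 against 6) and Ramp1 (33 in 21 against 5) followed. St6galnac3 had 31 UMIs in 10 members and none in other macrophages, at least 16.9-fold higher against a floor of 3 counts over the group, with an exact lower limit of the ratio of 12.9. In the WT-labelled library it had 19 UMIs in 13 other macrophages and 0 in members. Several of the highest ratios rested on few nuclei. One nucleus held 92.3% of the 39 UMIs of C7, and without doublets the log2 ratio of C7 was −0.27. One nucleus held 55.6% of the UMIs of 9530059O14Rik, and Neil3, Lockd and Top2a are genes of dividing cells.

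Hba-a2 entered this group through 2 nuclei. Of its 927 UMIs, 510 and 330 lay in 1 nucleus each and the next had 5. Hbb-bs had 1704 and 1028 in those ranks and then 7. Without the 2 nuclei in which haemoglobin genes held over 5% of UMIs, the log2 ratio of Hba-a2 was −0.26.

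Of the genes with the lowest ratios, Ldb2 (2 UMIs in members, 44 in others), Sparcl1 (3 and 32) and Tfpi (3 and 30) are known from endothelial cells, and Adam12 (3 and 56) and Adamts12 (7 and 87) from mesenchymal cells. Mucl1 had 0 and 42 UMIs, Ctnna3 2 and 39, Adh1 2 and 31, Sema6a 6 and 79 and Gm26883 5 and 59.

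The members were not alike. Divided after the data were seen by the rule genes they carried, 33 members of the KO-labelled library had St18, 73 had Sirpb1a, Sirpb1b or Skint3 without St18, and 33 had Ptpro and Adgre4 alone. They are called the St18, the Sirpb1/Skint3 and the Ptpro/Adgre4 nuclei. Among members, 27 of 33 St18 nuclei also had Ptpro, but 6 had Adgre4, against 71 of 106 members without St18. A rule that asks for 2 of 6 genes itself sets which genes go together, so the same was counted in all 393 nuclei with at least 2 of Csf1r, Mertk and Adgre1, whatever rule genes they had. There 38 had St18, of which 60.5% had Ptpro against 43.9% of the rest, and 15.8% had Adgre4 against 24.2%. Sirpb1a and Skint3 were in none of the 38, which allows up to 7.89%, and in 3.66% and 5.92% of the other 355, so that a separation of these genes from St18 was not detectable at this number of nuclei.

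St18 nuclei carried more lipid-associated transcripts. The list summed to 9041 CPM (8592 to 9507), against 3034 in Sirpb1/Skint3 nuclei, 3281 in Ptpro/Adgre4 nuclei and 4350 in all other macrophages. Lpl, lipoprotein lipase, stood at 1906 CPM in St18 nuclei and 741 in other macrophages, Cd36, a fatty acid transporter, at 1602 and 695, and Plin2, which coats lipid droplets, at 846 and 320. Trem2, the lipid-sensing receptor of lipid-associated macrophages, had 34 UMIs in 13 of 33 St18 nuclei and 4 UMIs in 2 of 73 Sirpb1/Skint3 nuclei. Gpnmb had 29 UMIs in 7 St18 nuclei and 4 in 3. Atp6v0d2, a proton pump subunit of fused macrophages and osteoclasts, had 70 UMIs in 13 St18 nuclei and 6 in 2, and Dcstamp, a fusion protein, had 19 in 5 but 1 in the 24 St18 nuclei that met the stricter gate. Spp1 had none.

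Sirpb1/Skint3 nuclei carried the monocyte transcripts and more MHC class II. The classical monocyte list stood at 2216 CPM (2049 to 2393), against 625 in St18, 695 in Ptpro/Adgre4 nuclei and 512 in all other macrophages. The non-classical list stood at 818 CPM against 143, 107 and 120, and MHC class II at 14985 CPM against 8463, 7909 and 7685. The gap in MHC class II was smaller nucleus by nucleus. Per 10000 UMIs its median was 85.01, against 49.96 in St18, 61.45 in Ptpro/Adgre4 nuclei and 56.99 in other macrophages. Among Sirpb1/Skint3 nuclei it ran from 0 to 756.57, and 1 deep nucleus of 12758 UMIs stood at 707.79. Ccr2 had a UMI in 54 of 73 of these nuclei, Fn1 in 39, Fgr in 43 and Gpr141 in 33. Flt3 (34 UMIs in 11 nuclei), Klri1 (53 in 21) and Itgal (59 in 19) had no UMI in St18 nuclei, where a count of 0 allows up to 9.09% of nuclei. Retnla, a product of alternatively activated macrophages, stood at 5236 CPM against 1209 in St18 nuclei and 3044 in other macrophages. Batf3 had a UMI in 42.5% and Zbtb46, a marker of conventional dendritic cells, in 12.3% of these nuclei, the latter close to the 13.4% of other macrophages.

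**Figure D3:**
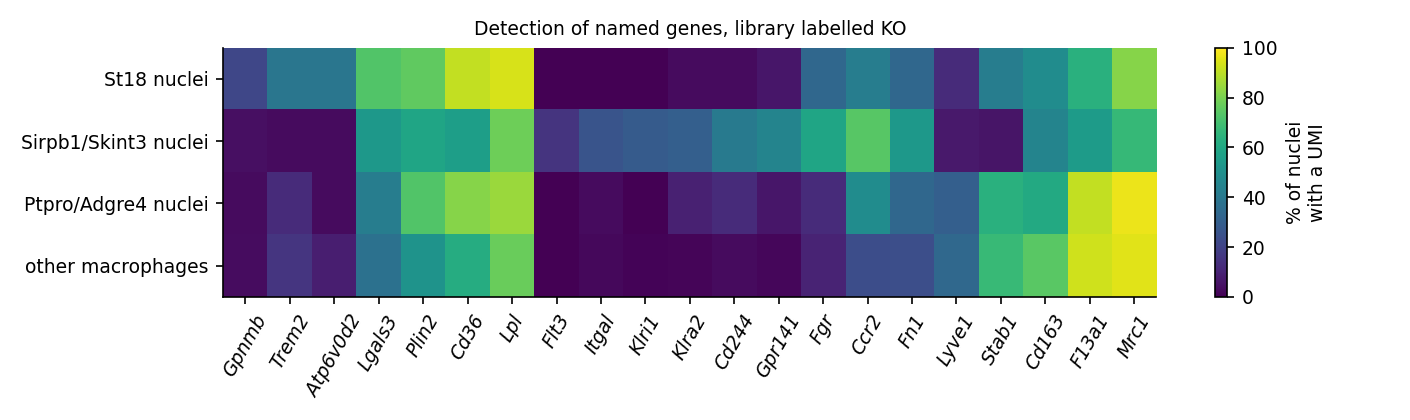
Percentage of nuclei with at least 1 UMI of each gene (colour scale 0 to 100%) in the 3 subsets of members and in other macrophages of the KO-labelled library. Gpnmb to Lpl are most often found in St18 nuclei, Flt3 to Fn1 in Sirpb1/Skint3 nuclei, and Stab1, F13a1 and Mrc1 are about as frequent in Ptpro/Adgre4 nuclei as in other macrophages, with median depths of 4804, 3620, 3969 and 3025 UMIs from top to bottom.

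Ptpro/Adgre4 nuclei resembled the other macrophages by these lists. Their resident list stood at 12473 CPM (11929 to 13036) against 13101 in all other macrophages, 5741 in St18 and 3187 in Sirpb1/Skint3 nuclei. At least 2 of Mrc1, F13a1 and Cd163 were in 31 of 33 of them, against 20 of 33 St18 and 44 of 73 Sirpb1/Skint3 nuclei. F13a1, a subunit of clotting factor XIII, stood at 5184 CPM in Ptpro/Adgre4 nuclei and 4873 in other macrophages, and at 1876 and 1220 CPM in the others. Stab1, a scavenger receptor, had a UMI in 21 of 33 Ptpro/Adgre4 nuclei and in 4 of 73 Sirpb1/Skint3 nuclei. The lower resident level of the whole set thus lay in 2 of its 3 subsets. Of the Ptpro/Adgre4 nuclei, 32 of 33 had at least 2 of Csf1r, Mertk and Adgre1, as other macrophages had to. The same held for 24 of 33 St18 and 38 of 73 Sirpb1/Skint3 nuclei. The part of this gate in the resident levels of the subsets was not tested.

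**Figure D4:**
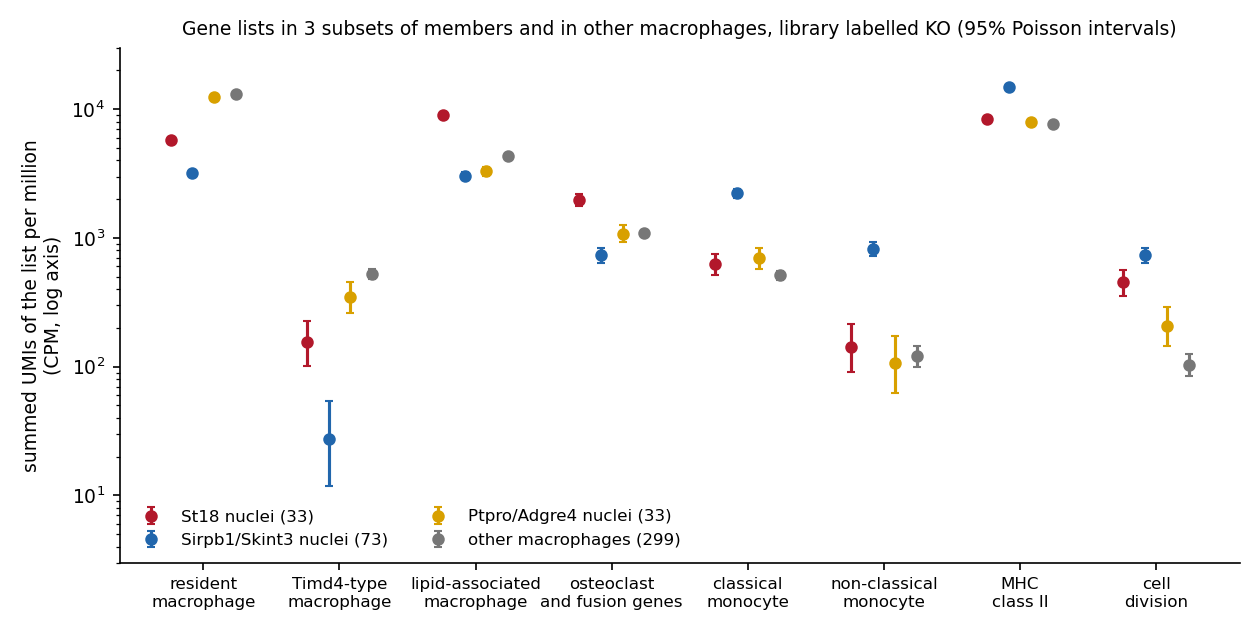
Summed level of 8 gene lists in CPM (log axis) with exact Poisson 95% intervals in the 3 subsets of members and in other macrophages of the KO-labelled library. St18 nuclei are highest for the lipid-associated list at 9041 CPM, Sirpb1/Skint3 nuclei for both monocyte lists and MHC class II, and Ptpro/Adgre4 nuclei lie beside other macrophages for the resident list.

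Nucleus by nucleus the subsets overlapped. Per 10000 UMIs, the lipid-associated list ran from 10.3 to 261 in St18 nuclei with a median of 71.6. The median was 26.3 in Sirpb1/Skint3 nuclei (0 to 112), 34.3 in Ptpro/Adgre4 nuclei (11.7 to 89.9) and 31.3 in other macrophages (0 to 355). Both monocyte lists together had a median of 29.5 in Sirpb1/Skint3 nuclei (0 to 143), 2.27 in St18 nuclei (0 to 31.6), 2.53 in Ptpro/Adgre4 nuclei (0 to 88.3) and 2.24 in other macrophages (0 to 128). The medians lie apart and the ranges do not, so that single nuclei could not be placed by either list.

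**Figure D5:**
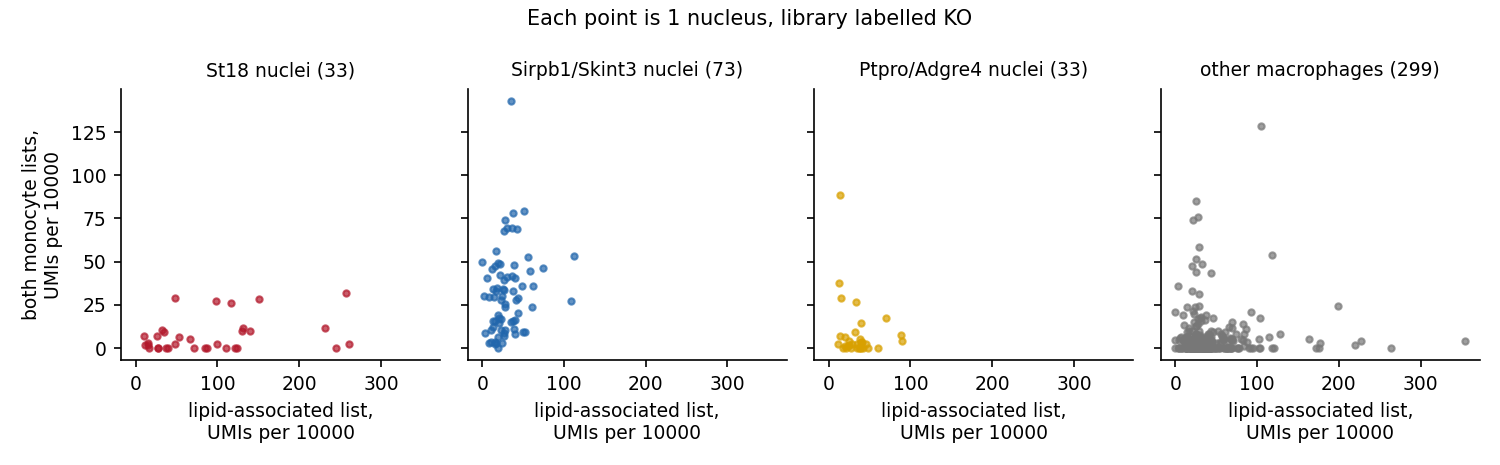
Each point is 1 nucleus of the KO-labelled library, with UMIs of the lipid-associated list per 10000 on the x axis and UMIs of both monocyte lists per 10000 on the y axis, 1 panel per subset. St18 nuclei spread along the x axis up to 261, Sirpb1/Skint3 nuclei along the y axis up to 143, and the ranges overlap.

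Set against each other, 3530 genes had enough counts in St18 and Sirpb1/Skint3 nuclei, of which 287 (8.13%) were called higher in St18 nuclei and 337 (9.55%) lower. Beside the genes above, Myo10 (34 UMIs against 1), Ms4a7 (43 against 4), Slc37a2 (39 against 6) and the proton pump subunit Atp6v0a1 (130 against 29) were higher in St18 nuclei. Higher in Sirpb1/Skint3 nuclei were Clec2g (101 UMIs against 1), Itpr1 (167 against 5), Il17ra (54 against 0), Ltb4r1, a leukotriene receptor (33 against 0), and Plac8 (38 against 0).

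The values of the subsets were close to these without doublets, dividing nuclei and haemoglobin-rich nuclei. There, 29 St18 nuclei stood at 9329 CPM of the lipid-associated list, and 64 Sirpb1/Skint3 nuclei at 3266 CPM of it and 2257 CPM of the classical monocyte list. Among nuclei with at least 2 of Csf1r, Mertk and Adgre1, 24 St18 nuclei stood at 7616 CPM and 38 Sirpb1/Skint3 nuclei at 3292 CPM of the lipid-associated list, and MHC class II at 9400 and 16235 CPM. Flt3 stood at 35.5 CPM in Sirpb1/Skint3 nuclei under that gate and at 116 CPM without it, and 12 of these 73 nuclei had none of the 3 gate genes.

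Nuclei outside the set that carried the same genes gave values of their own. The 14 other macrophages with St18 as their only rule gene stood at 9425 CPM of the lipid-associated list (418 UMIs) and 4938 CPM of the resident list, near the 9041 and 5741 CPM of St18 members. The 8 other macrophages with Sirpb1a, Sirpb1b or Skint3 alone stood at 2234 CPM of the classical monocyte list (57 UMIs) and 7446 CPM of MHC class II, the latter near the 7685 CPM of all other macrophages rather than the 14985 CPM of Sirpb1/Skint3 members. Across the threshold of the rule, members with exactly 2 rule genes stood at 7660 CPM of the resident list and 1501 CPM of the classical monocyte list. Other macrophages with exactly 1 stood at 13336 and 490 CPM.

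Between the libraries, 4448 genes had enough counts in members, of which 211 (4.74%) were higher in the KO-labelled library and 222 (4.99%) lower. In other macrophages the counts were 1674 (23.4%) and 1025 (14.3%) of 7151. These values for members rest on 12467 UMIs in 4 nuclei, and TMM scaling turned them to 803 higher and 38 lower. Of the 433 genes called in members, 276 were called the same way in other macrophages and 0 the opposite way, so most of what separated the members of the libraries also separated their other macrophages.

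The largest gap between the members' ratio and that of other macrophages was Hbb-bs (4943 against 160 CPM in members, 692 against 256 in others), from the 2 haemoglobin-rich nuclei. Colgalt1, Ddhd1, Fau and Ptma followed, with 1 UMI each in the members of the WT-labelled library. At the other end 3110082I17Rik stood at 98.5 against 241 CPM in members and 151 against 3.42 in other macrophages, followed by March3, Kcnrg, Fam196a and Rfx2, again with 1 UMI each in the members of the WT-labelled library. Of the rule genes, Ptpro and Adgre4 had counts in other macrophages of both libraries. Those nuclei hold by rule at most 1 rule gene. The rule took 139 of 438 macrophages in the KO-labelled library and 4 of 113 in the WT-labelled library, so the ratios are not free of the choice. In other macrophages Ptpro stood at 178 CPM in the KO-labelled library and 51.3 in the WT-labelled library (ratio 3.47, 2.05 to 6.33), and Adgre4 at 51.4 and 17.1 CPM (ratio 3.01, 1.21 to 9.64). St18 had 51 UMIs in 14 of 299 other macrophages of the KO-labelled library and 0 in 109 of the WT-labelled library.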

How the data were processed

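Single-nucleus RNA sequencing gave 1 matrix for each of 2 libraries, 3 mice pooled in each. The authors aligned and counted the reads with Cell Ranger 6.1.1, as the file headers state, on mm10 per the labels, and deposited raw UMI counts of 31053 genes in 5000 barcodes per library. Seurat 4 stands in the submitters' processing notes. Whether intronic reads were counted, and whether free RNA was removed, is not given in the sources used here.

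From these counts, nuclei with at least 500 genes and at most 5% mitochondrial UMIs were kept and grouped by the sample labels. UMIs were summed over nuclei, mitochondrial genes were left out of the comparisons, and genes with at least 30 counts over both sets were compared as CPM. Intervals of sums were exact Poisson, of shares exact Clopper-Pearson and of ratios exact conditional binomial, all at 95%. A share of 0 was given the limit of 3 counts. A gene was called at a ratio of at least 2 or at most 0.5 with an interval that left out 1. With 1 library per group there was no test. Median depth was 1208 UMIs in the WT-labelled library and 3973.5 in the KO-labelled library, so shares were also given after thinning to 1000 UMIs. Doublets were scored with Scrublet and stayed in the main values. Its automatic threshold marked 92 of 2944 nuclei in the KO-labelled library and 0 of 3649 in the WT-labelled library, where the top 4% (146) were marked instead.

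The members and gene lists were chosen with earlier results of these data known. The rule for named genes took the genes of the membership rule, up to 20 genes higher and 10 lower in both libraries by the smaller of their 2 changes, the 2 to 4 genes with most counts of each list, and the 5 genes at either end of the difference between the libraries. Outside it, and named after their values were seen, were the rest of the 13 genes lower in both libraries, other list genes that were called or at 0, the genes highest and lowest in the KO-labelled library alone, and the genes that separated the subsets. The subsets, the genes of the heat map and the promoter motif were likewise chosen after values were seen. Alternatives were other gates, limits and filters, TMM scaling and the removal of doublets or of nuclei with lymphocyte genes. The values without dividing nuclei, without haemoglobin-rich nuclei and without the adipocyte limit were chosen after seeing the data. The counting steps were tested on simulated data. Tools were Python 3.11.15, numpy 2.4.6, pandas 2.3.3, scanpy 1.11.5, matplotlib 3.10.9, R 4.3.3 and edgeR 4.0.16, the last for TMM factors alone.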

Additional observations from a re-analysis of the deposited data

Results flagged for a closer look

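In the KO-labelled library 67 nuclei met every condition for membership except that they carried more than 1 of the 4 adipocyte genes, and they entered no comparison. Their median depth was 5104 UMIs and 10 of them were marked as doublets. Their lipid-associated list stood at 5081 CPM, classical monocyte list at 1261 CPM, MHC class II list at 9714 CPM and resident list at 4548 CPM. The 18 with St18 stood at 6297 CPM of the lipid-associated list and 376 CPM of the classical monocyte list. The 33 with Sirpb1a, Sirpb1b or Skint3 and no St18 stood at 5283 and 1950 CPM. A further 69 of 2056 barcodes of that library that missed the quality limits carried at least 2 rule genes, against 8 of 1351 in the WT-labelled library. They were not analysed further.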

How the results depend on the processing

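No paired analysis was possible because each group had 1 library, and for the same reason no replicate could be left out. The share of members was higher in the KO-labelled library in every alternative run. In that library it was 14.6% with at least 3 rule genes, 24.2% with other macrophages taken by 2 of the 4 gate genes, 23.9% with the stricter gate and 17.5% after thinning. In the WT-labelled library the same alternatives gave 0%, 2.19%, 0.909% and 0%. Calls in the WT-labelled library (90 higher, 41 lower) became 7 and 268 under TMM, 39 and 10 without nuclei with lymphocyte genes, 141 and 173 without the adipocyte limit, 250 higher without the count filter and 4 lower under the stricter gate. Calls in the KO-labelled library (341 and 336) became 219 and 220 under the stricter gate, 657 and 508 without the count filter and 587 and 810 without the adipocyte limit. The lower calls were 550 with at least 3 rule genes and 670 with the wider comparison group. Between libraries the members' calls (211 and 222) became 803 and 38 under TMM, and 570 lower without the count filter. The log2 ratio turned for C7 to −0.55 with the wider comparison group and −0.27 without doublets, and for Hba-a2 to −0.22 without doublets and −0.26 without haemoglobin-rich nuclei. It turned for Pparg to −0.65 and for Themis to −0.22 without the adipocyte limit, and for Mki67 to −0.17 without dividing nuclei. Apart from the count filter, whose removal adds genes, the cause of these changes was not tested. The values of the WT-labelled members rest on 12467 UMIs in 4 nuclei.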
